A study of Mus musculus with 4 samples.

Results

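This report describes 4 transcripts of cultured mouse spermatogonial stem cells, TCONS_00166598, TCONS_00166450, TCONS_00054290 and n285821, out of 70677 features listed over 4 RNA libraries. Each feature has an identifier of its own, a length and a number of uniquely placed reads. The 4 were chosen by their reads: each had at least 20 unique reads in both retinoic acid libraries and no row, taken as 0 reads, in both vehicle libraries. They make up 0.00566% of all features, and since their reads chose them, their difference between the groups is a description and was given no test.

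The cells were germ cells of C57BL/6 pups 6 to 8 days old, enriched for the surface protein Thy1 and grown in serum-free medium with GDNF, GFRA1 and bFGF on STO feeders, a mouse fibroblast line whose division had been stopped. Retinoic acid cells (2 libraries) received trans-retinoic acid, labelled 0.3 mM in 0.1% ethanol, for 24 hr, and vehicle cells (2 libraries) received 0.1% ethanol; a slip in that dose unit was not checked. Nothing in the labels says whether the libraries of a group came from separate cultures, so any spread or p-value given here concerns these libraries and may be technical. The libraries were of like depth, with a mean of 8143774 ± 17654 unique reads in vehicle and 7920915 ± 3513 after retinoic acid (SD, n = 2).

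Spermatogonial stem cells renew themselves under GDNF, which the Sertoli cells of the testis secrete, and give rise to all later germ cells. Retinoic acid, made from vitamin A, binds nuclear receptors that sit on DNA and switch target genes, and in the testis it starts the differentiation of spermatogonia and their later entry into meiosis. Long non-coding RNAs, the subject of the series, are transcripts that do not encode a protein, and many are expressed in few cell types. TCONS_ is the prefix that the Cufflinks programs give to transcripts assembled from reads. Such a transcript may be a form of a known gene, a new locus or a fragment of either.

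None of the 4 identifiers was found in the RefSeq and GENCODE tables at hand (0 of 4), and the files give no gene name, position or sequence. What gene each belongs to, whether it codes for protein, and whether it has a near-identical copy elsewhere are therefore not stated. For the same reason the labelled cell type could not be checked against marker genes of germ cells, feeders or somatic testis cells. In bulk RNA, a change in the number of cells that make a transcript and a change in the amount per cell cannot be told apart.

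TCONS_00166598, of 1558 bases, had the highest mean level of the 4 after retinoic acid, though not the highest in replicate 1. It had 36 reads in replicate 1 and 103 in replicate 2, against 0 and 0 in vehicle. As RPKM (reads scaled to the feature's length and the library's total) these were 2.92 and 8.34 (mean 5.63 ± 3.84, SD, n = 2). The gap to vehicle is set by the rule. The 2 retinoic acid libraries lay far apart from each other, and their exact Poisson 95% intervals, which cover counting error only, did not overlap (25.2 to 49.8 reads and 84.1 to 125 reads).

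TCONS_00166450, of 1548 bases, had 41 and 66 reads after retinoic acid and none in either vehicle library. Its RPKM was 3.34 and 5.38 (mean 4.36 ± 1.44, SD, n = 2). Here replicate 2 was again the higher, with Poisson intervals that overlapped (29.4 to 55.6 and 51.0 to 84.0 reads).

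TCONS_00054290, the longest at 2364 bases, had 22 and 48 reads after retinoic acid and again none in vehicle. Its RPKM was 1.18 and 2.56 (mean 1.87 ± 0.981, SD, n = 2), the lowest mean of the 4. Replicate 2 was the higher library here too, and the intervals did not overlap (13.8 to 33.3 and 35.4 to 63.6 reads).

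The feature n285821, of 1651 bases, was the only member outside the TCONS_ series. It had 35 and 21 reads after retinoic acid against 0 and 0. Its RPKM was 2.68 and 1.61 (mean 2.14 ± 0.758, SD, n = 2). It was also the only member of the 4 with more reads in replicate 1, though the intervals overlapped (24.4 to 48.7 and 13.0 to 32.1 reads).

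**Figure D1:**
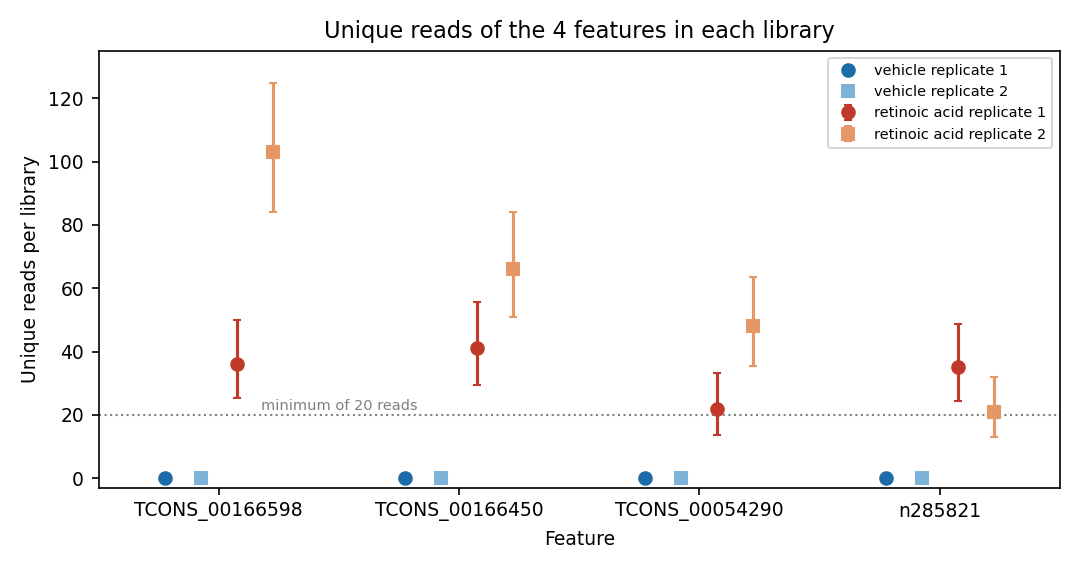
Unique reads (vertical axis) of the 4 features (horizontal axis) in each of the 4 libraries; bars are exact Poisson 95% intervals for counting error, and the dotted line is the minimum of 20 reads in the rule. All 8 vehicle points lie at 0, and replicate 2 is the higher retinoic acid library for the 3 TCONS_ features and the lower for n285821.

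By RPKM, a scale on which features of different length can be compared, the order of the 4 was not the same in both libraries. In replicate 1 TCONS_00166450 (3.34) lay above TCONS_00166598 (2.92), n285821 (2.68) and TCONS_00054290 (1.18). In replicate 2 TCONS_00166598 (8.34) came first, then TCONS_00166450 (5.38), TCONS_00054290 (2.56) and n285821 (1.61). Both pairs of neighbours in level, the upper 2 and the lower 2, changed places, so neither pair differed beyond the spread between libraries. TCONS_00166598 and TCONS_00166450 exceeded the other 2 in each library. In replicate 1, however, TCONS_00166598 and n285821 lay within counting error of each other. They had 36 reads (Poisson interval 25.2 to 49.8) and 35 reads (24.4 to 48.7).

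None of the 4 was among the scarce or the dominant RNAs of the retinoic acid libraries. By RPKM, TCONS_00166598 exceeded 75.4% and 88.0% of the features listed in replicates 1 and 2, and TCONS_00166450 exceeded 77.8% and 83.3%. TCONS_00054290 exceeded 54.5% and 70.3%, and n285821 exceeded 73.8% and 58.7%. A minimum of 20 reads in the rule keeps out the scarcest features, so these ranks are in part set by it.

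The zero reads in vehicle limit the level there but do not show absence. A count of 0 in 1 library allows up to 3 reads there. At the depth of the vehicle libraries that is an RPKM of at most 0.237 for TCONS_00166598, 0.238 for TCONS_00166450, 0.156 for TCONS_00054290 and 0.223 for n285821. The folds that follow use a lower floor, with the 3 reads allowed over both vehicle libraries together. With 3 reads summed over the vehicle group as the floor, and reads taken per total reads, TCONS_00166598 lay 47.6-fold above the floor after retinoic acid and TCONS_00166450 lay 36.7-fold above it. The values were 24.0-fold for TCONS_00054290 and 19.2-fold for n285821. With the counting error of the retinoic acid reads (exact Poisson, 95%), the lower limits were 40.0-fold, 30.1-fold, 18.7-fold and 14.5-fold in the order named. These limits leave out the spread between the retinoic acid libraries, so the true lower limits may be lower. Without retinoic acid replicate 2 the values for TCONS_00166598 and TCONS_00054290 fell to 24.7-fold and 15.1-fold. Leaving out either vehicle library lowers each of the 4 to about 0.5 times its value, since the same floor then stands against fewer reads.

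The difference between the 2 retinoic acid libraries was set beside that of 6842 features with the same range of summed retinoic acid reads, 56 to 139. Among those the log2 ratio of replicate 2 to replicate 1, in reads scaled to library totals, had a median of 0.23, quartiles of -0.16 and 0.64, and 5th and 95th percentiles of -0.79 and 1.27. The ratio was 1.52 for TCONS_00166598, beyond that range. It was 1.12 for TCONS_00054290, 0.69 for TCONS_00166450 and -0.74 for n285821, each inside it but outside the quartiles. Among the 70 other features with 0 vehicle reads and 5 or more reads in both retinoic acid libraries, the 5th and 95th percentiles were wider, at -1.14 and 1.55. The ratios of all 4 features lay within them. That set is not matched in depth: only 9 of the 70 had a lower count of 10 to 19, and the rest had fewer. Counting error alone is wider at such counts, so the set cannot show that the ratio of TCONS_00166598 is ordinary.

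Reads lay along most of the length of TCONS_00166598 and TCONS_00166450. A lone read covered 90 bases in every feature with 1 read, so read length is taken as 90 bases. In TCONS_00166598 the reads covered 79.1% of the length in replicate 1 and 97.4% in replicate 2, that is 1232 and 1518 bases at a mean depth of 2.08 and 5.95 reads per base. In TCONS_00166450 they covered 88.0% and 96.4%, or 1362 and 1492 bases.

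Coverage was not part of the rule, but it follows the number of reads and the length. Each value was therefore set beside other features of the same library with 0.5 to 2 times the reads and a length between 0.8 times its own and the inverse of that factor. For TCONS_00166450 these had a median coverage of 68.4% (quartiles 55.2% and 80.4%, 3056 features) in replicate 1 and 79.1% (64.1% and 89.1%, 2532 features) in replicate 2. For TCONS_00166598 the medians were 65.6% (52.6% and 78.0%, 3469 features) and 85.1% (66.6% and 93.1%, 1671 features). Both features lay above the upper quartile in both libraries. Against a narrower reference of 517 features, with an upper quartile of 80.7%, TCONS_00166598 fell inside the quartiles in replicate 1.

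In each library the reads of TCONS_00054290 and n285821 covered less of their length than those of TCONS_00166598 and TCONS_00166450. Beside its reference, however, TCONS_00054290 lay above the median in both libraries. Its mean excess was 16.4 ± 15.2 points (SD, n = 2), beside 12.9 ± 0.806 for TCONS_00166598 and 18.4 ± 1.65 for TCONS_00166450. TCONS_00054290 went from 45.3% in replicate 1 to 87.0% in replicate 2, against medians of 39.6% (quartiles 29.6% and 52.6%) and 59.9% (45.2% and 74.0%), so it lay between the quartiles in the first and above them in the second. In n285821 more reads covered fewer bases: 35 reads covered 49.2% (813 bases) in replicate 1, and 21 reads covered 56.2% (928 bases) in replicate 2. Its reference medians were 63.6% (50.4% and 76.5%) and 53.5% (41.0% and 67.4%). It was thus below the lower quartile in replicate 1 and near the median in replicate 2. The files do not give the position of reads, so whether both libraries read the same stretch was not tested.

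**Figure D2:**
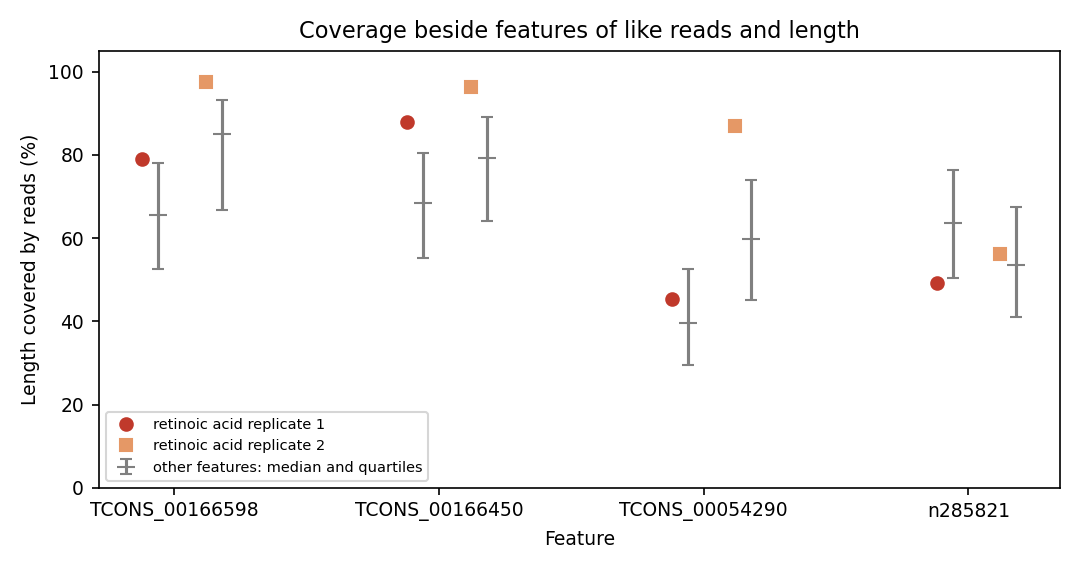
Percent of each feature's length covered by reads (vertical axis) in the 2 retinoic acid libraries, beside the median and quartiles (gray) of other features of that library with like reads and length. TCONS_00166598 and TCONS_00166450 lie above the upper quartile of this reference in both libraries, and n285821 lies below the lower quartile in replicate 1.

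Features numbered close to a member were examined next, since the rule did not use them. Programs that assemble or catalogue transcripts often number those of 1 locus in sequence, but a number is not a coordinate, and whether any of these features shares a locus or reads with a member is not known. Within 10 numbers of a member, 41 features of the same identifier series were listed, and 17 had enough reads for edgeR's quasi-likelihood test across all 32160 features tested. Of the 17, 0 were called higher and 1 was called lower at an adjusted p under 0.05, while 2 of the 17 had an unadjusted p under 0.05. Over all features tested 1.83% were called, 0.634% higher and 1.19% lower, and 1 of 17 is too few to set against that share. The median log2 fold change of the 17 was 0.20, against 0.0034 over all features tested. Both retinoic acid libraries lay above both vehicle libraries in 3 of the 17, against 22.0% of all features tested, and in 12 of the 41 listed, against 18.8% of all listed features.

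Around TCONS_00054290 a run of features had no vehicle reads. Within 5 numbers of it 7 other features are listed, and 4 of the 7 had 0 reads in both vehicle libraries, as did 6.25% of all listed features. That share covers features of any depth and is not matched to the few reads of these 4. These 4 lie from 2 numbers below to 3 above it, while the features 3 below and 4 above each had vehicle reads. The feature 2 numbers below, of 1176 bases, had 5 and 28 reads after retinoic acid. The next number up from the member, of 2934 bases, had 8 and 11 reads.

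The feature 2 numbers above TCONS_00054290, of 1021 bases, had 0 and 11 reads, and the one 3 above, of 1257 bases, had 2 and 22. In these 4 and the member, replicate 2 held more reads than replicate 1, with 120 against 37 in sum. The limits of this run were drawn after the values were seen, and none of the 4 had enough reads for the test. The run was picked for its 0 vehicle reads, the contrast that a test would use, so no p-values are given for these 4. Vehicle had no reads for any of them, so fitted fold changes are not given either.

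The wider neighbourhood of TCONS_00054290 rested on the same library. Of the 12 other features listed within 10 numbers of it, replicate 2 of retinoic acid was the highest of the 4 libraries in 12, as it was in 30.9% of all listed features. Their summed reads were 34 and 21 in vehicle and 42 and 199 after retinoic acid, or 4.17, 2.58, 5.30 and 25.1 CPM (reads scaled to each library's total). Retinoic acid replicate 1 exceeded both vehicle libraries in 5 of the 12. The 1 neighbour with enough reads for the test, 6 numbers below and 2279 bases long, had 13 and 8 reads in vehicle and 12 and 36 after retinoic acid (log2 fold change 1.16, SE 0.64, edgeR adjusted p = 0.579), and was not called. The feature 5 numbers above, of 1296 bases, had 1 and 2 vehicle reads against 7 and 31, and was called with no filter on reads (edgeR adjusted p = 0.0393).

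TCONS_00166598 and TCONS_00166450 are 148 numbers apart in a series that runs up to 167285, and differ by 10 bases in length. Whether they resemble each other in sequence could not be read from the files. Between them 35 of 147 numbers are listed, of which 20 were tested and 0 were called in either direction by edgeR, with a median log2 fold change of 0.39. Both retinoic acid libraries exceeded both vehicle libraries in 10 of the 35, against 18.8% of all listed features, and 1 of the 35 had no vehicle reads.

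The nearest neighbours of TCONS_00166598 were read in both groups. The feature 4 numbers below, of 4729 bases, had 219 and 309 vehicle reads and 296 and 382 after retinoic acid (log2 fold change 0.34, SE 0.26, edgeR adjusted p = 0.764). The feature 3 above, of 218 bases, had 122 and 167 vehicle reads against 142 and 146 (log2 fold change -0.014, SE 0.30, adjusted p = 0.997). In both features the groups overlapped. No run without vehicle reads like that around TCONS_00054290 reached a comparable depth here: the features 5, 6 and 7 above had 0 vehicle reads but at most 2 after retinoic acid.

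Around TCONS_00166450 4 features were listed within 10 numbers. The feature 6 above, of 1808 bases, had 11 and 14 vehicle reads and 24 and 25 after retinoic acid, groups that did not overlap (log2 fold change 0.96, SE 0.59, edgeR adjusted p = 0.651). The feature 5 above, of 2079 bases, had 13 and 7 reads against 19 and 8, groups that did. In sum the 4 neighbours had 30 and 30 reads in vehicle and 62 and 49 after retinoic acid, or 3.68 and 3.69 against 7.83 and 6.18 CPM. The only 2 tested were not called.

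The neighbours of n285821 included the 1 called feature, and it fell. This feature, 7 numbers below and 3165 bases long, had 81 and 43 reads in vehicle and 6 and 22 after retinoic acid (log2 fold change -2.15, SE 0.49, edgeR adjusted p = 0.0107). Its coverage fell with its reads, from 79.2% and 69.1% in vehicle to 17.1% and 36.8% after retinoic acid. The call was lost without vehicle replicate 1 (adjusted p = 0.142), without retinoic acid replicate 1 (adjusted p = 0.258), with library totals alone as the scaling (adjusted p = 0.202) and in DESeq2 (adjusted p = 0.0550).

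A second neighbour of n285821, 2 numbers below and 1369 bases long, had 60 and 65 reads in vehicle and 27 and 30 after retinoic acid, groups that did not overlap. It did not pass the test (log2 fold change -1.14, SE 0.41, edgeR adjusted p = 0.198). The most abundant neighbour, 5 numbers above and 1424 bases long, had 962 and 746 reads in vehicle and 1129 and 1127 after retinoic acid (log2 fold change 0.40, SE 0.24, adjusted p = 0.636). Unlike the feature 2 below, the feature 1 below the member held almost no reads, with 1 and 0 in vehicle and 0 and 0 after retinoic acid. The feature 2 above had 0 and 4 against 0 and 0. The 18 listed neighbours summed to 1779 and 1590 reads in vehicle and 1710 and 1869 after retinoic acid.

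**Figure D3:**
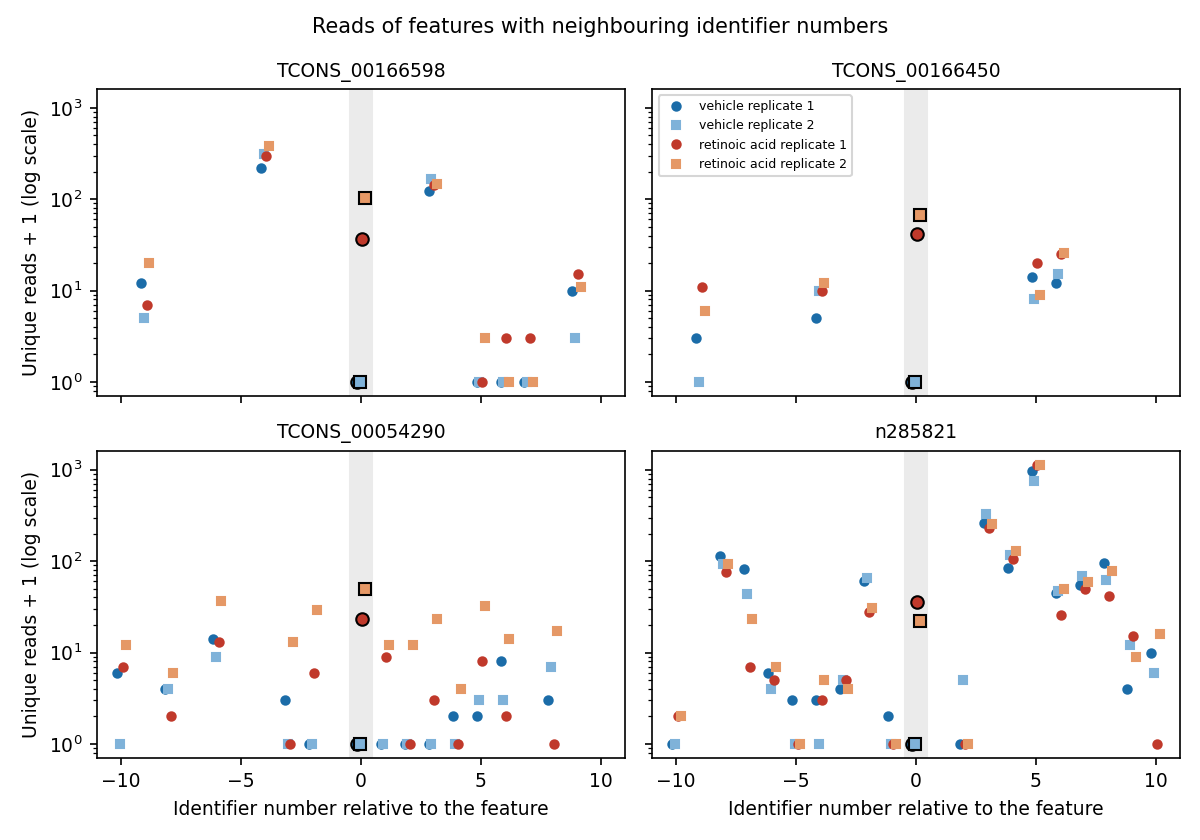
Unique reads plus 1 (vertical axes, log scale) of features within 10 identifier numbers of each of the 4 features (horizontal axes), in each library; outlined points on the gray band are the 4 features themselves. Around TCONS_00054290 retinoic acid replicate 2 is the highest library in 12 of 12 neighbours, whereas around n285821 reads in both groups lie close together for most features.

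The rule's minimum of 20 reads separates the 4 from features with nearly the same pattern. Just inside it, n285821 had a lower retinoic acid count of 21 and TCONS_00054290 of 22. Just outside, with 0 vehicle reads and ranked by the lower of their retinoic acid counts, came a feature of 1230 bases with 19 and 29 reads, one of 1413 bases with 17 and 21, and one of 1485 bases with 18 and 13. In all, 9 features without vehicle reads had a lower count of 10 to 19, and 7 of the 9 belonged to the TCONS_ series. These are the features most like the 4 by this measure, over 4 libraries.

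A few vehicle reads kept other features out. Of the features with 1 to 3 reads summed over vehicle, 7 reached 20 reads in both retinoic acid libraries, at lengths of 909 to 3115 bases. The deepest, of 3115 bases, had 72 and 62 reads after retinoic acid against 0 and 3 in vehicle, and the next, of 2153 bases, had 45 and 52 against 0 and 2. Both had more reads than TCONS_00054290 and n285821 in each retinoic acid library, on raw reads that are not scaled to length. In 6 of the 7 the vehicle reads lay in replicate 2 alone, and in 1 in replicate 1 alone.

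At low minimums, features read in 1 group only were more frequent in vehicle. With at least 1 read in each library of a group and 0 in the other, there were 1493 features in vehicle and 1086 in retinoic acid. At a minimum of 10 reads the counts were 14 and 13. At 15 they were 0 and 6, and at 20 they were 0 and the 4 described here. The deepest features without reads after retinoic acid had a lower vehicle count of 14, with 15 and 14 reads in a feature of 2265 bases, 28.9% and 26.5% covered. Another of them, of 1037 bases with 12 and 13 reads, was 66.4% and 60.4% covered.

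**Figure D4:**
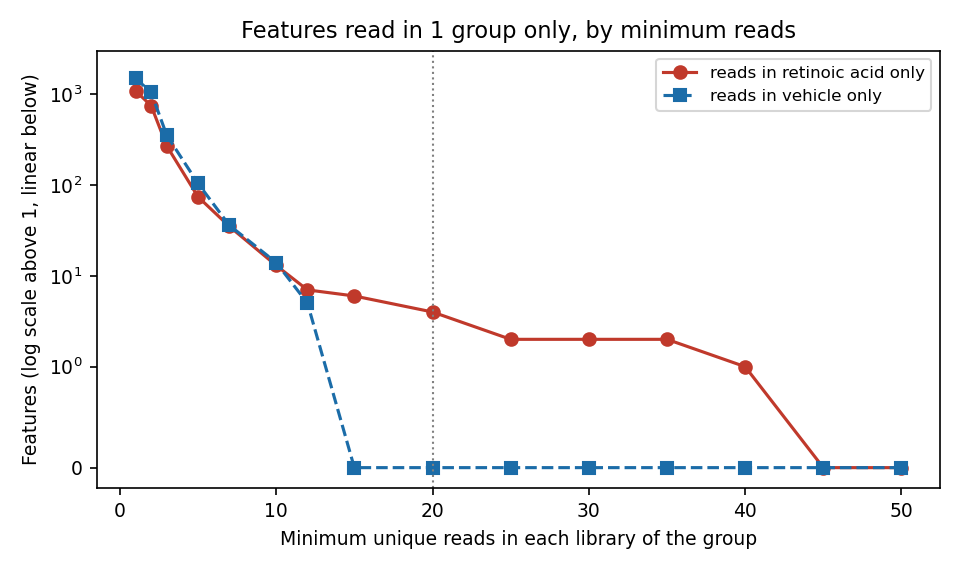
Number of features (vertical axis, log scale above 1) with 0 reads in 1 group and at least the given number of unique reads in each library of the other group (horizontal axis); the dotted line marks 20 reads. The counts are 1493 in vehicle and 1086 in retinoic acid at 1 read, and 0 and 4 at 20 reads.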

How the data were processed

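RNA was measured in 4 libraries of mouse spermatogonial stem cells, 2 after retinoic acid and 2 after vehicle, grouped and numbered by their titles. The deposited counts are unique reads per feature, per the file headers; each file summed to the total in its header. The authors' RPKM values were used as deposited and not tested. Deposited coverage is the percent of a feature's length that is covered. The aligner, assembly and build are not given in the sources used. Features with no row in a file count as 0 reads there. Totals were 7918431 to 8156257 reads per library. The reference for coverage spans 0.5 to 2 times a member's reads and 0.8 to 1.25 times its length; the narrower one spans 0.8 to 1.25 and 0.9 to 1.11.

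The 4 members, the lists and the tests were chosen with earlier results of these data known. Only the 4 members are named by identifier; other features are given by identifier distance or by rank, as the naming rule provides. The test across features was that of edgeR (version 4.0.16, R version 4.3.3; filterByExpr, TMM factors of 0.957 to 1.07, glmQLFit and glmQLFTest, group as the only term, Benjamini-Hochberg over 32160 features, two-sided), with calls made at an adjusted p under 0.05. The fit was tested on simulated data. SE is the log2 fold change divided by the root of F. The alternatives included limma-voom (limma 3.58.1), DESeq2 1.42.0, other scalings, filters and windows, the replicate number as a block, halved counts, thinning and leaving out each library. The run around TCONS_00054290, the numbers between TCONS_00166450 and TCONS_00166598, and the spread between libraries were examined after the values were seen.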

Additional observations from a re-analysis of the deposited data

How the results depend on the processing

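The rule gave 4 features at 20 reads, 13 at 10 reads, 2 at 30 reads, 9 with up to 2 summed vehicle reads, and 1 with counts halved, as if each pair of reads had been counted in duplicate; thinned to the smallest total it gave the same 4. Leaving out 1 library gave 6 to 12 features, the 4 among them by construction: 11 without vehicle replicate 1, 12 without vehicle replicate 2 and 8 without retinoic acid replicate 1. Folds above the floor without 1 library ran from 23.8-fold to 70.6-fold for TCONS_00166598, 18.3-fold to 45.2-fold for TCONS_00166450, 12.0-fold to 32.9-fold for TCONS_00054290 and 9.58-fold to 24.0-fold for n285821. Halved counts gave 18.5-fold for TCONS_00166450 and 9.94-fold for n285821. A floor of 1 count raises them by construction, to 143-fold, 110.0-fold, 72.0-fold and 57.6-fold in the order named. With a narrower reference of features closer in reads and length mean coverage exceeded the median by 8.90 points in place of 12.9 for TCONS_00166598 and by 12.2 in place of 18.4 for TCONS_00166450.

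Over all features 588 were called; DESeq2 called 361 and library totals alone 162, and the cause was not tested. Leaving out 1 library gave 289 to 565 calls: 350 without vehicle replicate 2, 289 without retinoic acid replicate 1 and 372 without retinoic acid replicate 2. Among the neighbours, where 1 was called, DESeq2 called 0 (2 at an unadjusted p under 0.05), library totals alone 0 (3), a minimum of 50 counts 0 (1) with fewer features tested, and a window of 5 numbers 0 (1). No filter gave 4 calls among 41 neighbours, 3 of them higher and all 3 near TCONS_00054290. Those 3 include features of the run that was picked for its 0 vehicle reads. Calls within the run follow in part from that choice and add no support. Over all 70677 features the fit with no filter called 607, 232 of them higher. With 1 library left out, the log2 fold change of the called neighbour of n285821 stayed negative. It was -3.25 without retinoic acid replicate 2 and -1.57 without retinoic acid replicate 1. As stated above, its call did not hold in every such fit. The replicate number as a block gave 764 calls over all features and the same 1 neighbour; same-numbered libraries deviated together with r = 0.076 across features, and the labels do not say that they are paired. Depth limits the zero counts to the floors given.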
